A study of Mus musculus with 302 samples.

Results

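The livers described here are 65 of 302 in which the RNA of Hsd17b13 lay far below that of the common pool, set against the other 237. They were chosen from the measurement itself. The value of the 1 probe for Hsd17b13 on the array was split into 2 clusters by 2-means started at its lowest and highest value. The lower cluster is called the low state and the upper cluster the high state. All livers came from F2 mice of both sexes, whose F1 parents were crosses of C57BL/6J and C3H/HeJ, 2 inbred strains, made in both directions. Low-state and high-state mice alike ate chow with 4% fat until week 8 and then, for 12 weeks, a Western diet that held 42% fat and 0.15% cholesterol, and livers were taken at 20 weeks of age after a 12 h fast. The labels give no genotype, sex, direction of the cross or trait for a mouse, so the state of a mouse is known only from its Hsd17b13 value. Each of 302 2-colour arrays compared whole liver tissue of 1 mouse with a pool of equal shares of RNA from all the mice. Neither the log base nor the direction of the ratios is stated. A log10 ratio with the mouse on top is the likely reading, and every fold below rests on it. A log ratio to a pool gives no absolute level, so it cannot show whether a gene or a cell type marker is near 0 in these livers.

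Hsd17b13 is a hydroxysteroid dehydrogenase family enzyme of the hepatocyte that sits on the surface of lipid droplets and acts on retinol and other lipids in vitro. In people, variants that remove its function are known for their association with milder chronic liver disease, and its level is known to rise in fatty liver. Its gene lies beside that of its close relative Hsd17b11, another lipid droplet enzyme. Genes that stand close together on a chromosome are inherited together in an F2 cross, so the genes of the same chromosome are described first.

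The sequences around the starts of both genes are shown because these genes are neighbours and close relatives, of which Hsd17b13 defines the states and Hsd17b11 did not pass the test between them. Each is a window of 300 bases from RefSeq on the assembly GRCm38.p6, which need not be the build of the array. The Hsd17b13 window is chr5:103977339-103977638 on the minus strand and the Hsd17b11 window chr5:104021747-104022046 on the minus strand. Capitals mark motifs found by searching both strands for the nuclear receptor half-site AGGTCA, the TATA box TATAAA, the CCAAT box and the sterol regulatory element TCACNCCAC.
Hsd17b13: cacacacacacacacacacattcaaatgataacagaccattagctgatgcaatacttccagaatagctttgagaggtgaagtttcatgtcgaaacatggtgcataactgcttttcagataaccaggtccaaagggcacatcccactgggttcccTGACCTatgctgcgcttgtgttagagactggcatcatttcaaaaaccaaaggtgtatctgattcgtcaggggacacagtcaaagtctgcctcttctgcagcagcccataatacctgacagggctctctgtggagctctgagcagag
Hsd17b11: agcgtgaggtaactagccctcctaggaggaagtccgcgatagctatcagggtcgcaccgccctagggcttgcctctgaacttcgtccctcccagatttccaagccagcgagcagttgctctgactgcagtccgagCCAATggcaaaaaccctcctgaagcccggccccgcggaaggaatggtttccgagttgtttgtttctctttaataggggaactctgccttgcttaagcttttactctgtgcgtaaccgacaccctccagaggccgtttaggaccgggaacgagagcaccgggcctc
The Hsd17b13 window had 47% G and C and held 1 half-site, in its reverse form TGACCT. The Hsd17b11 window had 57% G and C and held 1 CCAAT box. Of 32851 promoter windows of the same length, 16.3% held the half-site, 37.4% the CCAAT box, 13.6% the TATA box and 1.24% the sterol element. These are matches of letters, not measured binding sites.

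The Hsd17b13 values left an empty gap between the states. In the 65 low-state livers the lowest value was -1.12, the median -0.851 and the highest -0.496. In the 237 high-state livers the lowest was -0.257, the median -0.0553 and the highest 0.246. The means were -0.868 ± 0.142 in the low state (SD, n = 65) and -0.0494 ± 0.0839 in the high state (SD, n = 237), a distance of -0.818 or 6.58-fold, given as a description because these values made the groups. The midpoint of the split was -0.459. Of the livers nearest to it, those inside the low state had -0.496, -0.628 and -0.653 and those outside it -0.257, -0.247 and -0.239. A Gaussian mixture put 0 livers in another state. It was started from this split and fitted to the same values, so it is not an independent check.

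Some of these values are shared with other genes. On 190 of the 302 arrays groups of probes carry the same value to within 2e-05, and those concerned most often belong to genes of high expression in liver, such as the ribosomal protein gene Rps18 (109 arrays), the peroxisomal thiolase gene Acaa1b (99) and the plasma protein gene Ahsg (99). Hsd17b13 has such a tied value in 0 of 65 low-state livers and in 30 of 237 high-state livers, 29 of which have mouse numbers up to 212. In these 30 livers 12 to 89 other probes share its value, so it is not a measurement of Hsd17b13 alone. The other 207 high-state livers have a mean of -0.0493 ± 0.0869 (SD), which leaves the distance at -0.818 and the fold at 6.58, and their lowest and highest values are those of the whole state. Whether ties also limit how high an Hsd17b13 value can be was not tested, so the fold describes the deposited values and is not shown to be that of the RNA. The leading genes of the contrast carry no tied value on any array, and 652 of the 659 probes found to have changed below are never tied.

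The deposited values of Hsd17b13 also varied within each state, over a 4.25-fold range in the low state and, tied values included, a 3.18-fold range in the high state. Mice were placed in 4 blocks by their value of Eif2s3y, a gene of the Y chromosome, below or above -0.8 and by their number in the study, up to 212 or above it. Low-state livers with numbers up to 212 had a median of -0.774 (n = 38, -0.918 to -0.496), and those with higher numbers a median of -0.994 (n = 27, -1.12 to -0.884), so that both ranges of numbers barely met. High-state livers had medians of -0.0404 (n = 121) and -0.0643 (n = 116) in the same ranges. The low state took 25.6% of the 160 Eif2s3y-high livers and 16.9% of the 142 Eif2s3y-low livers (Fisher's exact test, two-sided, p = 0.0698). It took 23.9% of the 159 livers with lower numbers and 18.9% of the 143 with higher numbers (p = 0.327). The largest share, 26 of 82 livers or 31.7%, was in the Eif2s3y-high block of the lower numbers, and the smallest, 12 of 77 or 15.6%, in the Eif2s3y-low block of the lower numbers. All tests below take out the mean of each of the 4 blocks.

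**Figure D1:**
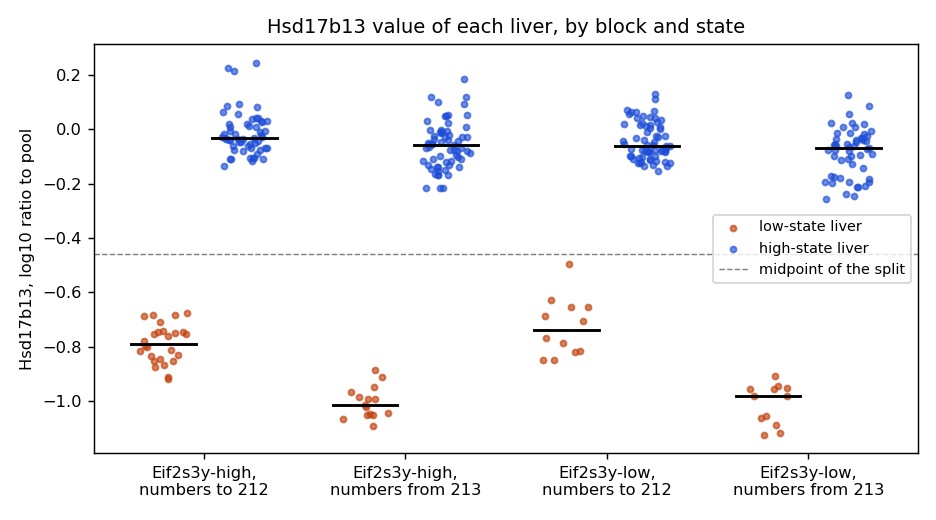
Log10 ratio of Hsd17b13 to the pool in every liver, by block on the x axis, with low-state livers left of high-state livers in each block, medians as black bars and the midpoint of the split dashed. No liver lies between -0.496 and -0.257, and low-state livers with higher numbers sit lower than those with lower numbers.

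Over all other probes, low-state and high-state livers differed at a small share. Of 23510 probes, 659 or 2.8% had an adjusted p under 0.05 (limma, with Benjamini-Hochberg adjustment over all of them), and such probes are said to have changed. In low-state livers 356 probes fell (1.51%) and 303 rose (1.29%). The changes were small, with a median of 1.08-fold, and 98 probes (0.417%) reached 1.2-fold, of which 24 fell (0.102%) and 74 rose (0.315%). At 2-fold there were 4, and 0 probes had values that did not overlap between the states. Of the 659, 496 had the same sign in all 4 blocks, and 14 passed the test within every block by itself. Both counts come from the mice that gave the 659, so they are a description and not a replication. These 14 are probes for Zfp33b, Sparcl1, Dgkq, Ptpn11, Cep135, Gak and Synpo2l and 7 probes without a gene name. Probes without a name made up 291 of the 659, out of 10892 such probes tested (2.67%).

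Chromosome 5, which carries Hsd17b13, stood above every other chromosome in its share of changed probes. On it 85 of 811 probes changed (10.5%), 39 lower and 46 higher in low-state livers, and they belong to 83 of 653 measured genes. On the other chromosomes 283 of 11806 named probes changed (2.40%), and among the other autosomes and the X chromosome the share ran between 0.966% on chromosome 12 and 3.64% on chromosome 8. The Y chromosome had 0 of 9. The median change was 1.15-fold on chromosome 5 and 1.08-fold among changed named probes outside it. The changed genes were not limited to the surroundings of Hsd17b13. Among measured genes within 20 places of it in gene order, on either side, 5 of 20 changed, 7 of 24 at 21 to 50 places, and 10 of 33 at 51 to 100 places. Farther away 11 of 117 changed at 101 to 200 places, 27 of 230 at 201 to 400 places and 20 of 218 beyond 400 places. The farthest changed genes lay at -587 and 617 places from Hsd17b13, which is number 632 of 1268 ordered protein-coding genes. Both arms of the order thus held changed genes up to near its ends. The gene at 617 places, Hmgb1, has 42 probes, and its changed probes had unlike signs. Its smallest p came from a probe at -0.115, while another was at 0.0430 (adjusted p = 0.0403). Linked genes are not independent of each other, and the counts above are given without a test.

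**Figure D2:**
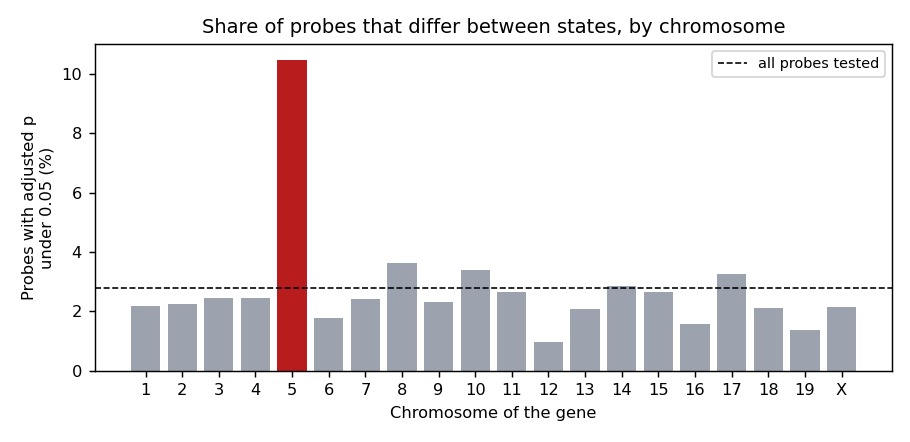
Share of probes with an adjusted p under 0.05 between low-state and high-state livers for each chromosome, with the share over all probes dashed at 2.8%. Chromosome 5 stands at 10.5% and the highest of the others, chromosome 8, at 3.64%.

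Close to Hsd17b13, 3 genes fell and 2 rose in low-state livers. Sparcl1, a secreted glycoprotein of the extracellular matrix, had a lowest, median and highest value of -0.507, -0.246 and 0.487 in low-state livers, against -0.324, 0.0437 and 0.432 in high-state livers. It was 1.82-fold lower (difference -0.261, SE 0.0213, adjusted p = 7.01e-25), and 59 of 65 low-state livers lay below the high-state median. The ranges overlapped fully at the upper end, where 1 low-state liver had the highest value of all. Zfp33b, which encodes a zinc finger protein, had -0.232, -0.102 and 0.0284 in low-state livers, against -0.300, 0.0249 and 0.238 in high-state livers. Its difference was -0.130 (SE 0.00880, adjusted p = 1.08e-33), and 64 of 65 low-state livers lay below the high-state median. Aff1, a subunit of the super elongation complex of transcription, fell by 0.0365 (adjusted p = 0.000309), but only by 1 of its 2 probes, the other having -0.00268 (adjusted p = 0.872). Gbp8, a guanylate-binding protein of the interferon response, rose by 0.151 (1.42-fold, adjusted p = 2.84e-05), and Ptpn13, a tyrosine phosphatase, rose by 0.0482 (adjusted p = 0.00361).

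The close relative Hsd17b11 was not among the changed neighbours. Its values ran between -0.115 and 0.248 with a median of 0.0120 in low-state livers, against -0.181 to 0.305 with a median of 0.0187 in high-state livers. Its difference was 0.0138 with a 95% interval from -0.00695 to 0.0346 (adjusted p = 0.523), an interval that holds no fall of the size seen in Hsd17b13. The bone and tooth matrix genes next to it did not pass either, with differences of -0.0102 for Dspp, -0.0102 for Dmp1, 0.0135 for Ibsp and 0.00712 for Mepe. The other 10 measured neighbours that did not pass were Klhl8, Slc10a6, Abcg3, Cops4, Plac8, Helq, Nkx6-1, Cds1, Wdfy3 and Mapk10, and the largest difference among them was 0.0596 for the sulfated steroid transporter Slc10a6 (adjusted p = 0.406).

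**Figure D3:**
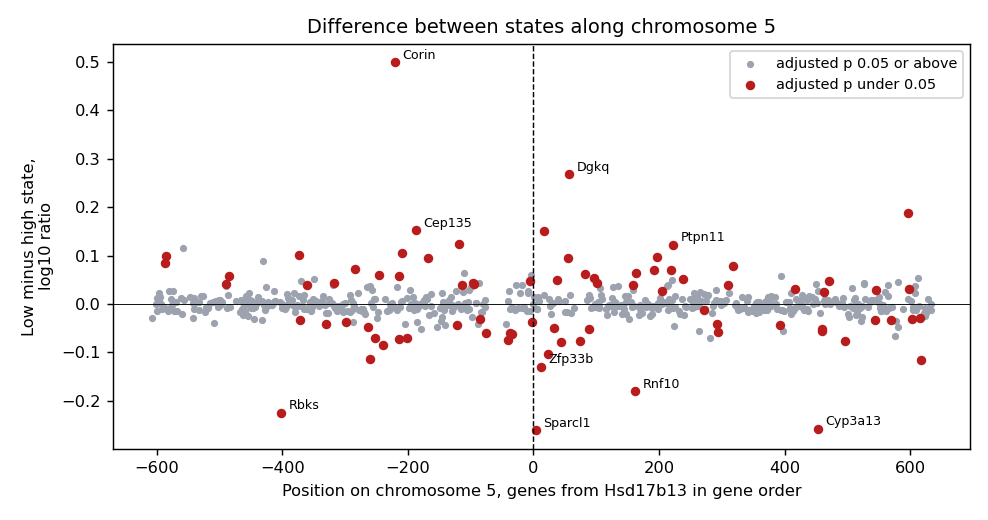
Low-minus-high difference in log10 ratio of each measured chromosome 5 gene against its position in gene order from Hsd17b13 (dashed line at 0), with changed genes in red. Sparcl1 at -0.261 lies close to Hsd17b13, Dgkq at 0.268 lies 57 places after it, and Corin at 0.499 and Cyp3a13 at -0.258 lie farther away.

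Farther along chromosome 5, Dgkq had the smallest p of the chromosome. It encodes diacylglycerol kinase theta, which turns diacylglycerol into phosphatidic acid. Its lowest, median and highest values were -0.00268, 0.180 and 0.356 in low-state livers, against -0.420, -0.0312 and 0.131 in high-state livers. It was 1.85-fold higher (difference 0.268, SE 0.0177, adjusted p = 6.51e-35), and all 65 low-state livers lay above the high-state median. By 2-means over all livers, 86 high-state livers fell into the lower cluster of Dgkq and 151 into the upper. The low state had 0 livers in the lower cluster. Since 2-means always gives 2 clusters, these counts do not show that the high state splits. The cardiac protease Corin, which cuts the precursor of atrial natriuretic peptide, had the same kind of pattern, with values down to -1.52 in the high state and no lower than -0.211 in the low state. Its lower cluster held 0 of 65 low-state livers and 74 of 237 high-state livers (31.2%). Corin was 3.16-fold higher in low-state livers (difference 0.499, SE 0.0593, adjusted p = 1.54e-12), the largest difference among the changed named genes of chromosome 5.

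**Figure D4:**
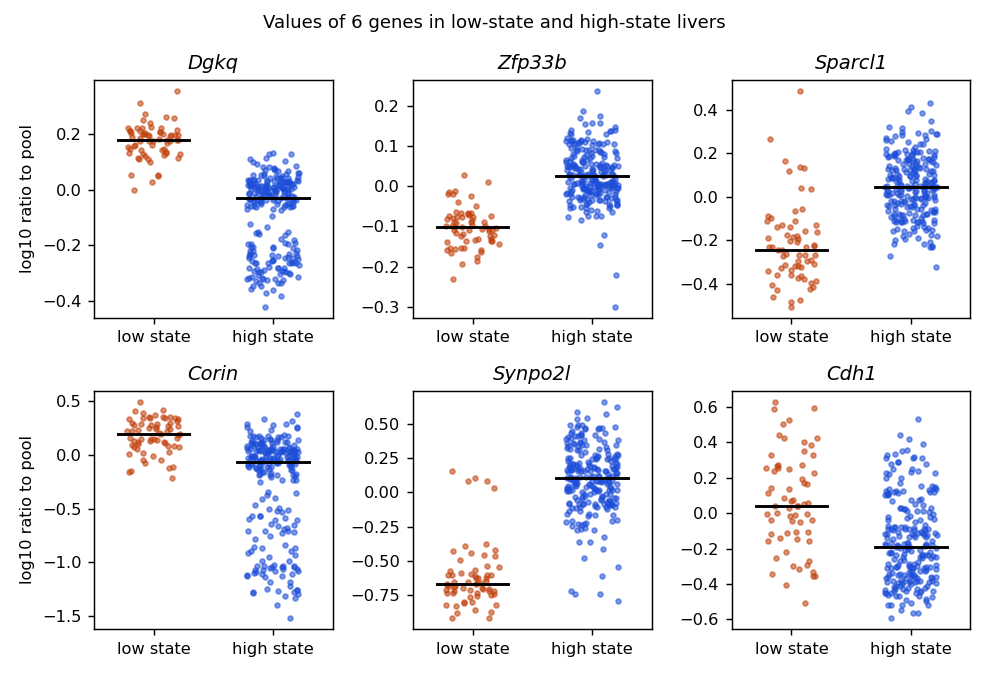
Log10 ratio to the pool of 6 genes in each low-state (left) and high-state (right) liver, with medians as black bars. The lower clusters of Dgkq and Corin hold high-state livers and no low-state liver, and Synpo2l has 5 low-state livers apart from the other 60.

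Other leading genes of chromosome 5 that rose in low-state livers were Gak, a kinase of clathrin coat removal (0.0957, 1.25-fold), Cox18, which inserts a cytochrome oxidase subunit into the inner mitochondrial membrane (0.123, 1.33-fold), and Ptpn11, the phosphatase SHP2 (0.122, 1.33-fold), each with at least 61 of 65 low-state livers above the high-state median. Cep135, a centriole protein, rose by 0.152 at 1 probe (1.42-fold), and its other probe had 0.00464 (adjusted p = 0.783). The GTP-binding protein Gtpbp6 rose by 0.0623 and the RNA pseudouridine synthase Pus1 by 0.0529. Atp10d, a phospholipid flippase gene, rose by 0.196 (1.57-fold) and the hydrolase gene Abhd1 by 0.217 (1.65-fold). RefSeq lists both as transcribed pseudogenes in its mouse assembly.

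Among the chromosome 5 genes that fell, Cyp3a13 and Rbks were spread widely within both states. Cyp3a13, a drug-metabolising cytochrome P450, had -0.640, -0.186 and 0.530 as lowest, median and highest value in low-state livers, against -0.628, 0.117 and 0.699 in high-state livers. It was 1.81-fold lower (difference -0.258, SE 0.0313, adjusted p = 5.41e-12). Rbks, which phosphorylates ribose, was 1.68-fold lower (difference -0.225, adjusted p = 3.69e-08), and 35 of 65 low-state livers (53.8%) fell into its lower cluster, against 42 of 237 high-state livers (17.7%). The RING finger protein gene Rnf10 fell by 0.180 (1.51-fold, adjusted p = 4.46e-16) and the testis bromodomain gene Brdt by 0.0497. All 15 genes with the smallest p on chromosome 5 kept their sign in each of the 4 blocks. They were picked by their p over the same mice, so this is not an independent check.

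Outside chromosome 5 the difference with the smallest p of the whole contrast was that of Synpo2l on chromosome 14, an actin-binding protein of striated muscle. Its lowest, median and highest values were -0.917, -0.665 and 0.155 in low-state livers, against -0.794, 0.107 and 0.660 in high-state livers. It was 5.15-fold lower (difference -0.712, SE 0.0335, 95% interval -0.778 to -0.646, adjusted p = 2.22e-57), and within the 4 blocks its difference lay between -0.795 and -0.539. By 2-means 60 of 65 low-state livers and 16 of 237 high-state livers fell into its lower cluster, so 5 low-state livers had Synpo2l in its upper cluster. The array carries 1 Synpo2l probe. No probe sequence was used here, so what this probe reads was not checked. Among 18 measured genes within 20 places of Synpo2l on chromosome 14, 2 changed and the largest difference was 0.0383. On chromosome 14 as a whole 12 of 421 probes changed (2.85%). Linked genes are not independent, and these counts are given without a test. By the likeness of its values to those of Hsd17b13 over all 302 livers, measured as the absolute Pearson correlation after the block means were taken out, Synpo2l came first, followed by Dgkq, Zfp33b, Cox18, Gak, Sparcl1, Cep135, Ptpn11, Rnf10 and Atp10d. The coefficients are not given, since the livers fall into 2 clusters. The ranking uses the values that made the states, so it largely repeats the contrast and is no further support for it.

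The remaining changes outside chromosome 5 were smaller and spread over many chromosomes. Of 10160 measured genes there, 281 changed, 144 lower and 137 higher, while of the 36 that reached 1.2-fold 32 rose and 4 fell in low-state livers. The cell adhesion protein Cdh1 (E-cadherin) had -0.509, 0.0427 and 0.629 in low-state livers, against -0.592, -0.190 and 0.533 in high-state livers. It rose 1.59-fold (difference 0.200, SE 0.0331, adjusted p = 1.99e-06) at 1 of its 2 probes, while the other had 2.95e-07 (adjusted p = 1). The trypsin inhibitor Spink1 rose 1.54-fold (0.186, adjusted p = 2.74e-06), the membrane protein Tspan8 1.39-fold and Rragd, a small GTPase of nutrient sensing, 1.32-fold. The matrix proteases Mmp12 (1.79-fold, 0.252, adjusted p = 0.00217) and Mmp13 (1.38-fold) and the epithelial gene Sprr1a (1.70-fold, 0.231, adjusted p = 0.00599) rose too. All of these genes overlapped widely between the states, with 46 to 53 of 65 low-state livers above the high-state median.

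Gpat4, an acyltransferase of glycerolipid synthesis, rose by 0.0911 (adjusted p = 2.42e-06) at 1 probe and had -0.0344 at the other (adjusted p = 0.111). Rpl21-ps15, a ribosomal protein pseudogene on the X chromosome, rose at 2 of its 5 probes, by 0.173 and 0.138. It is a near copy of Rpl21, itself on chromosome 5, where 1 of 6 probes rose, by 0.0312, so its probes may read either gene. Smaller rises were those of the peptide hormone precursor gene Guca2a (0.0341), the histone demethylase gene Phf8 (0.0520) and the DNA repair scaffold gene Slx4 (0.0407, at 1 of 2 probes). The photoreceptor cadherin gene Cdhr1 on chromosome 14 fell by 0.0548, the signalling scaffold gene Card14 by 0.0353, the antizyme gene Oaz2 by 0.0321 (at 1 of 3 probes) and the exonuclease gene Trex2 by 0.0187.

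Lists of the pathways in which Hsd17b13 works held few changed genes, as did the named genes as a whole. Over all named genes 183 of 10813 fell and 181 rose, with a median difference of -0.00116. Of their differences 5810 lay below 0 and 5003 above it. At so low a share of changed genes, counts of 0 or 1 in lists of this size do not set a list apart. Of 16 measured lipid droplet proteins and lipases 0 changed, and 13 differences lay below 0 (median -0.0148). This lean was not particular to them, with 18 of 23 below 0 in retinoid metabolism and 16 of 19 among hydroxysteroid dehydrogenases. Among the lipid droplet genes the triglyceride-forming enzymes Dgat1 and Dgat2 had -0.0188 and -0.0256 (adjusted p = 0.131 and 0.144). The monoglyceride lipase Mgll had -0.0262. Of 23 genes of retinoid metabolism 0 changed (median -0.00810), and the smallest p was that of the retinol dehydrogenase Rdh16, with -0.0624 (95% interval -0.104 to -0.0206, adjusted p = 0.0772). Of 19 other hydroxysteroid dehydrogenases and related reductases 1 fell, Hsd3b7 of bile acid synthesis, by 0.0308 (adjusted p = 0.0438), and the median was -0.0123. A further fit took as a covariate the first principal component of the data, computed after the block means were removed. With it Hsd3b7 no longer passed (adjusted p = 0.178), while Rdh16 did (-0.0769, adjusted p = 0.0294).

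Other parts of liver metabolism held few changed genes as well. Counts of 0 held for 18 genes of fatty acid synthesis, 17 of fatty acid oxidation, 15 of cholesterol synthesis and uptake, 13 of phospholipid synthesis, 15 of bile acid synthesis and transport, 11 of pyrimidine and purine catabolism and 11 of glucose metabolism. They held too for 15 acute phase genes and 18 interferon response genes. Of 18 genes of drug metabolism 1 fell, the chromosome 5 gene Cyp3a13. Of 10 targets of the sterol sensor LXR 1 rose, the lipoprotein lipase Lpl (0.128, 1.34-fold, adjusted p = 0.0117; 0.0926 with the first principal component as a covariate), and of 10 apolipoprotein and lipoprotein genes 1 rose, the HDL receptor Scarb1, which lies on chromosome 5 (0.0388, adjusted p = 0.0296). The medians of these lists lay between -0.0252 and 0.00582. Some lists leaned to 1 side, with 15 of 18 differences below 0 in drug metabolism and 13 of 15 in bile acid synthesis and transport. In pyrimidine and purine catabolism 10 of 11 lay below 0. In cholesterol synthesis and uptake 11 of 15 lay above 0. These leans were not tested. Among the genes counted in the lists 6 have tied values on 30 or more arrays, namely Fgg, Oat, Apoa2, Akr1c6, Hp and Tat. Plin2, tied on 102 arrays, is not among the 16 lipid droplet genes counted above.

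Markers of several cell types were measured beside these genes. Of 7 hepatocyte markers 0 changed (median -0.00979), and their mean level ran from -0.0989 to 0.0753 with a median of -0.0273 in low-state livers, against -0.123 to 0.0725 with a median of -0.00939 in high-state livers. Of 19 macrophage markers 2 rose, Itgax, which encodes CD11c (0.128, 1.34-fold, adjusted p = 0.00879), and the lipid-sensing receptor Trem2 (0.120, 1.32-fold, adjusted p = 0.0460). The list had a median difference of 0.0302, and 17 of 19 differences lay above 0, against 5003 of 10813 over all named genes. Its mean level ran from -0.443 to 0.216 with a median of -0.0595 in low-state livers, against -0.356 to 0.286 with a median of -0.0919 in high-state livers. In whole tissue a change in the number of cells of a type and a change in RNA per cell cannot be told apart. The part of these markers in the changes of Mmp12 and Lpl was not tested.

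Other marker lists held 1 changed gene or none. In low-state livers 1 of 14 stellate cell and matrix genes rose, the collagen Col4a1 (0.0578, adjusted p = 0.0308), and 1 of 5 bile duct markers, Epcam (0.0536, adjusted p = 0.0303). Epcam had the opposite sign, -0.0250, within the Eif2s3y-low block of the lower numbers. In 1 of 12 zonation markers, Cdh1, the rise given above was seen. The counts were 0 for 13 lymphocyte, 9 neutrophil, 11 endothelial, 7 red blood cell, 5 exocrine pancreas and 6 fat cell markers. The first principal component of the tested probes, taken after the block means were removed, held 10.8% of the variance that remained. It averaged 0.0162 ± 0.0657 in low-state livers and -0.00445 ± 0.0545 in high-state livers (SD). With it as a covariate 0 of the 19 macrophage, 0 of the 14 stellate cell and matrix and 0 of the 5 bile duct markers passed, and 278 probes changed in all, of which 65 were on chromosome 5.

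The difference between the states could also depend on the block. A term for state and Eif2s3y passed at 2 of 23510 probes (0.00851%; 2230 had an unadjusted p under 0.05), for Fras1 and Ipo8, whose values are given under the results for a closer look. A term for state and range of mouse numbers passed at 0 probes (0%) by limma, with 702 at an unadjusted p under 0.05, and at 0 on rank-based normal scores, with 820.

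Slopes on the Hsd17b13 value within a state were fitted too. Among the 237 high-state livers 5829 of 23510 probes (24.8%) had a slope past the threshold, 3152 rising (13.4%) and 2677 falling (11.4%) with the Hsd17b13 value. That value is tied to other probes in 30 of these livers, and with the median of the 100 probes tied most often as a covariate the count was 1796, so the slopes are not read as the behaviour of genes. Without the 30 livers the count was 3977. The slope of Dgkq, which is never tied, was -0.691 log10 units per log10 unit of Hsd17b13 (SE 0.102, adjusted p = 1.25e-08). It was -1.16 with the covariate (SE 0.124, adjusted p = 7.59e-14) and -0.678 without the 30 livers (SE 0.108, adjusted p = 3.18e-07). The genes looked at in this way had already changed between the states and were picked after their values were seen. Their slopes are thus a description and not support for a graded relation to Hsd17b13. Of those other than Dgkq, Gak, Cox18, Ptpn11, Rnf10, Corin and Zfp33b still passed with the covariate. Cdhr1 (adjusted p = 0.152) and Gbp8 (adjusted p = 0.0846) did not, though both passed without it.

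Among the 65 low-state livers, where no Hsd17b13 value is tied, 0 probes (0%) passed by limma, the lowest adjusted p being 0.529, with 1988 at an unadjusted p under 0.05. On rank-based normal scores 0 passed as well, with 1970. The slope of Dgkq was 0.0117 with an SE of 0.106. For Dgkq this SE was close to the 0.102 of the high state. The gene with the smallest p among the high-state slopes had an SE of 0.120 in the low state, against 0.0443 in the high state. For such genes the slope was less sharply measured in this smaller group, so the counts of both states are not on an equal footing. The difference between the slopes of both states was not tested.

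**Figure D5:**
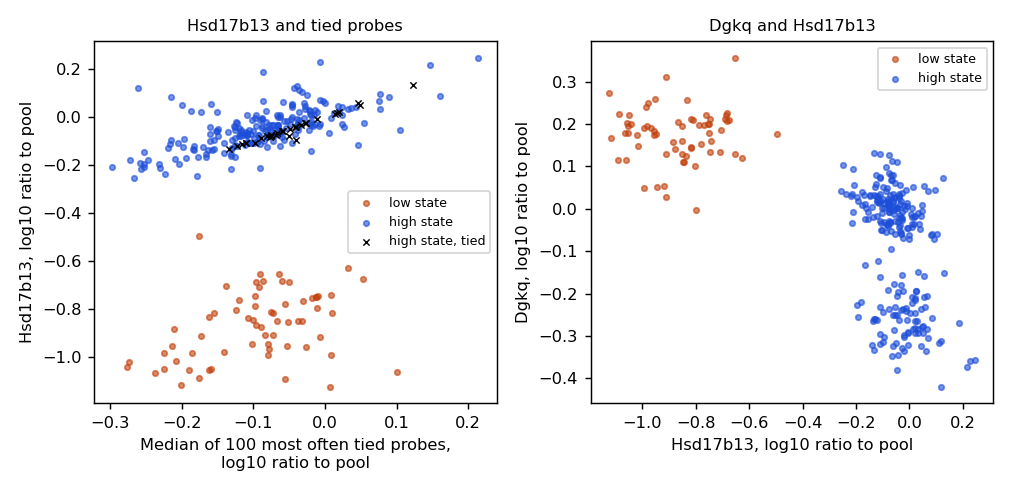
Left, log10 ratio of Hsd17b13 (y axis) against the median log10 ratio of the 100 probes tied most often (x axis) in each low-state and high-state liver, with the 30 high-state livers that have a tied Hsd17b13 value as crosses. Right, log10 ratio of Dgkq against that of Hsd17b13 in the same livers. The crosses lie along a line through the high-state livers, and in the right panel high-state livers lie at both lower and upper values of Dgkq.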

How the data were processed

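Liver RNA of 302 mice was measured on 2-colour arrays, mouse in Cy3 and common pool in Cy5, per the labels. The authors deposited 1 table of 23562 probes as log ratios, read here as log10 values. For base, direction, scanner software and normalization the entry is: not given in the sources used here. All values end at -2 and 2, and where Eif2s3y was high its median was 0.306 in mice numbered up to 212 and 0.0677 in the others, against the 0.276 in log10 or 0.916 in log2 that a pool holding this RNA from 53.0% of the mice would give. Only the first lies near either value, so log10 of mouse over pool is likely but not settled. Array medians ran from -0.0117 to 0.0174. A value was called tied where at least 10 other probes of its array lay within 2e-05 of it and over 5 times as many as the density within 0.002 gave. Precision is limited by how many arrays there are. The SD over an array's probes ran from 0.0696 to 0.258, and 4 arrays, all of the high state, stood apart in it. Symbols of 12652 probes matched 10838 genes of GRCm38.p6 through the array's annotation table, and the order of protein-coding genes came from the same gene table.

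Mice were split by 2-means of the Hsd17b13 probe. Tests took every probe measured in 90% or more of the arrays, less those of Hsd17b13 and Eif2s3y, and used limma 3.58.1 under R 4.3.3 (lmFit and eBayes, two-sided, Benjamini-Hochberg at 0.05 over all 23510), with the 4 blocks as covariates. Differences are low minus high. Slopes on Hsd17b13 and interactions were fitted over the same probes, and the script was tested on simulated data. Each mouse is 1 sample.

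Members and gene lists were chosen with earlier results of these data known. A gene is given by its probe with the smallest p. The medians and mean levels of lists, and the counts of differences below or above 0, instead use the mean over the probes of each gene. Named genes are the 15 with the smallest p on chromosome 5 and on the others, the 10 largest differences and the neighbours within 20 places. Up to 4 per list, the 10 most like Hsd17b13 and the leading genes of interactions are named too. Those of slopes are left out because of the ties. Rpl21, Hmgb1, the genes whose slopes are given and the examples of tied genes were chosen after their values were seen.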

Additional observations from a re-analysis of the deposited data

Results flagged for a closer look

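At 2 genes the low-minus-high difference itself differed between Eif2s3y-high and Eif2s3y-low livers in the test of the interaction. Fras1, an extracellular matrix gene on chromosome 5, had an interaction of 0.164 (Eif2s3y-high minus Eif2s3y-low, SE 0.0309, limma adjusted p = 0.00529). In Eif2s3y-low livers its lowest, median and highest values were -0.380, -0.132 and 0.131 in the 24 low-state livers, against -0.156, 0.0525 and 0.468 in the 118 high-state livers. In Eif2s3y-high livers they were -0.273, -0.0963 and 0.0815 in the 41 low-state livers, against -0.353, -0.0788 and 0.242 in the 119 high-state livers. The difference was thus -0.173 in Eif2s3y-low livers and -0.00785 in Eif2s3y-high livers, and the other 6 Fras1 probes did not pass the contrast.

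Ipo8, a nuclear import receptor on chromosome 6, had an interaction of 0.205 (SE 0.0428, adjusted p = 0.0291). Its difference was 0.0954 in Eif2s3y-high livers, with medians of 0.0455 in low-state livers and -0.00178 in high-state livers. In Eif2s3y-low livers it was -0.126, with medians of -0.198 in low-state livers and -0.00906 in high-state livers. On rank-based normal scores the adjusted p was 0.00469 for Fras1 and 0.0592 for Ipo8.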

How the results depend on the processing

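The count of 659 changed probes moved by over 1.5 times in several settings. It was 1088 without blocks, 1192 with Eif2s3y and number range as additive terms, and 278 with the first principal component as a covariate. Within single blocks it was 108 and 38 in the Eif2s3y-high livers with lower and higher numbers, and 20 and 31 in the Eif2s3y-low livers with lower and higher numbers. With a required fold of 1.2 it was 98. The mixture split gave the same states and is therefore the same fit, with 659. The count stayed within 1.5 times, between 615 and 901, under quantile normalization, rank-based normal scores, both missing-value filters and the limits set to missing. It also stayed in this range with the livers near the midpoint left out. The same held with the 4 arrays apart left out, a setting chosen after seeing the data. In further settings chosen after seeing the data it was 438 with the median of the probes tied most often as a covariate and 483 without the 30 livers with a tied Hsd17b13 value. In both of these Hsd3b7, Trem2 and Col4a1 no longer passed, while all 21 changed named genes on chromosome 5 and the other 20 elsewhere did. The count of 5829 slopes in the high state was 1796 with that median as a covariate and 3977 without those livers. Of the 21 changed named genes on chromosome 5 and the 23 elsewhere, 20 and 16 still passed with the first principal component and 21 and 21 on rank scores. Epcam reversed to -0.0250 within the Eif2s3y-low block of the lower numbers. The interaction count of 2 became 1 on rank scores. The causes were not tested. No paired analysis was possible because the labels give 1 group and the numbers name mice. The deposited values hold no signal over background, so probes near background could not be set apart.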
